A study of Mus musculus with 2 samples.

Results

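The Stefin A family of the mouse was followed through 2 single-cell RNA sequencing libraries of blood cells. Its 9 genes (Stfa1, Stfa2, Stfa2l1, Stfa3, Cstdc4, Cstdc5, Cstdc6, Csta2 and Csta3) were taken by symbol from the 32285 features of each matrix, and all 9 were found in both. The genes were chosen because their summed level per cell had a high tail among neutrophils and because they were seen together in cells, so the tail and the co-expression are described and not tested. The young library came from mice of 2 months and the old library from mice of 24 months, both labelled male, with no strain, genotype or treatment given. Red cells of whole blood were lysed, live cells positive for CD45, CD11b and Ly6G were sorted, and, per the labels, single cells were captured in microwells with the BD Rhapsody system, which puts a cell barcode and a unique molecular identifier (UMI) on each molecule near its 3′ end. The stated purpose of the series is to study senescent neutrophils in aging. How many animals gave each library is not stated, and because each age has 1 library the ages cannot be tested against each other. Values are given as young against old and describe these libraries.

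Stefins are the cytosolic branch of the cystatin superfamily. They are small proteins without disulfide bridges that bind reversibly in the active site of papain-like cysteine proteases, such as the lysosomal cathepsins, and block access of the substrate. Humans have a single stefin A gene (CSTA), whereas the mouse carries a tandem cluster of close copies, several of which are known to be transcribed in myeloid cells, including neutrophils. Neutrophils are short-lived phagocytes whose granules are filled in a fixed order during maturation in the bone marrow.

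The 9 genes lie side by side on chromosome 16 within chr16:36156811-36455392 (GRCm38, GENCODE annotation), a span of 299 kb, and all are protein coding. From the low to the high coordinate the order is Stfa2l1, Cstdc4, Csta3, Csta2 and Stfa1 on the plus strand, then Cstdc6, Cstdc5, Stfa2 and Stfa3 on the minus strand. Each annotated transcript has 3 exons, apart from that of Csta2 with 5. Coding sequences were 56.2% to 96.9% identical over the 36 pairs, with a median of 78.6%, where gaps in the alignment count as differences. The low end came from Stfa1, whose coding sequence of 384 bases is longer than the 288 to 309 of the others. Without Stfa1 the lowest value was 74.8%, for Stfa2l1 with Cstdc5 and with Cstdc6. The closest pairs were Cstdc4 with Csta2 (96.9%), Stfa2 with Stfa2l1 (96.4%) and Cstdc5 with Cstdc6 (95.2%). Reads can therefore be split between copies. Windows of 90 bases were read from the last 500 bases of each transcript, or from the whole transcript where it was shorter. The annotated transcript of Csta3 has only 294 bases, of which 291 are coding. Of these windows, 21.4% were shared exactly with another member for Cstdc5, 16.4% for Cstdc6, 15.4% for Cstdc4 and 12.2% for Csta2. The shares were 4.38% for Stfa1, 2.42% for Stfa2l1, 2.09% for Stfa2 and 0% for Stfa3 and Csta3. Values of single members are therefore uncertain, most of all those of a rare copy beside an abundant one, as Csta2 beside Cstdc4 and Cstdc6 beside Cstdc5. There, reads of the abundant gene counted for the rare one could add to its level by an amount that was not tested. Reads moved between members do not change the family sum.

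The sequences just before the transcription start are shown because members were detected together in cells and share a stretch there. The 80 bases before the RefSeq start (GRCm38.p6) are given 5′ to 3′ on the strand of the gene, with TTTAAAACC in capitals, for the 3 most abundant members, for Stfa3 at the other end of the cluster, and for Csta2, in whose window the stretch was not found.

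Stfa2l1, chr16:36156731-36156810, plus strand: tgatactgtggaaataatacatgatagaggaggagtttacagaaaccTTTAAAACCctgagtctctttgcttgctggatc
Cstdc4, chr16:36184132-36184211, plus strand: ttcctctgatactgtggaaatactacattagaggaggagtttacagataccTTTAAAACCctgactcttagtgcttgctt
Stfa1, chr16:36277068-36277147, plus strand: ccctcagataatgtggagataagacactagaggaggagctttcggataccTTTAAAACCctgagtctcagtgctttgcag
Stfa3, chr16:36455393-36455472, minus strand: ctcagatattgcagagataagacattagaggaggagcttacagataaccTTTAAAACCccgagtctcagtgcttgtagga
Csta2, chr16:36221482-36221561, plus strand: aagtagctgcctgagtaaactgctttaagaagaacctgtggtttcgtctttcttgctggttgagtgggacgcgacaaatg

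TTTAAAACC was present within 250 bases before the start of 7 of the 8 members with a promoter entry (Cstdc6 had none), and in 113 of 32851 promoters of the same length (0.344%), searched on both strands. It began 29 bases before the RefSeq start in Stfa2 and Cstdc4, 30 in Stfa1, 31 in Stfa3 and 33 in Stfa2l1, but 9 in Cstdc5 and 77 in Csta3. The RefSeq starts of Stfa1, Stfa2, Cstdc5 and Csta2 lie inside the gene bounds of the GENCODE annotation used above. For these genes the windows, the distances and the absence in Csta2 depend on the annotation. The purine stretch AGAGGAGG was found in 6 members and in 4.23% of all promoters. Both of these were picked after the promoters had been read. The canonical TATA box letters TATAAA were in 0 of the 8 windows and in 12.4% of all promoters. TTNNGCAA, a relaxed form of the letters bound by C/EBP factors of granulocyte development, was in 3 (Stfa1, Cstdc5 and Csta3) and in 9.56%. These are matches of letters in paralogous sequence and say nothing of binding.

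The young library held 13599 barcodes and 69599479 UMIs, the old 14334 barcodes and 128826996 UMIs, and after filtering 9973 and 9263 cells fell in neutrophil-like clusters, with a median of 4070 and 7254 UMIs per cell. The libraries shared 53 barcodes. Against the male label, Xist, which coats the silenced X of female cells, stood at 56.3 and 103 CPM (UMIs per 1000000 UMIs of the same cells) in neutrophil-like cells and the Y-linked Eif2s3y at 0 UMIs, whereas the Y-linked Ddx3y had 1017 and 665. The ages filled different neutrophil-like clusters: clusters 0, 2 and 4 most young cells (5515, 2495 and 1579), clusters 1, 3 and 9 most old cells (5163, 1929 and 798). The neutrophil surface antigen gene Ly6g stood at 102 and 1018 CPM, and the calprotectin genes S100a8 and S100a9 took 10.8% and 29.2% of all UMIs. The median of the 2577 genes at 50 CPM or more lay 0.67 lower on the log2 scale in the old library. Ratios are therefore given plain and relative to that median gene. Erythroid markers summed to 2142 and 3126 CPM in neutrophil-like cells, platelet markers to 107 and 202, classical monocyte markers to 310 and 748, and B cell markers to 102 and 40.2, with none of these lists' markers at 0 UMIs. Without the cells with at least 0.5% of UMIs from T, NK, B, platelet or erythroid markers, the family log2 difference below was 0.16, the members higher in the old library 3, and the shares of stefin-rich cells 8.83% and 12.4%, against 0.16, 3, 8.73% and 12% with them. The part of the monocyte markers was not tested.

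As a family the stefins took 0.204% of neutrophil-like UMIs in the young library and 0.228% in the old, or 2038 CPM (2025 to 2051) against 2284 CPM (2273 to 2294). Parentheses hold 95% intervals (exact Poisson for a CPM, exact Clopper-Pearson for a percentage of cells), which reflect counting error alone. The family sum was thus 1.12-fold higher in the old library, a log2 difference of 0.16, or 0.84 relative to the median gene. Per cell this came to 9.12 against 19.5 UMIs at the different depths. UMIs count molecules at one end of the transcript, so levels of genes are compared below without division by length. Whether the annotated 3′ end of each member is complete was not tested. The level of Csta3, with almost no annotated sequence outside the coding part, is therefore uncertain beside those of other members.

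Stfa2l1 and Cstdc4 made up most of the family in both libraries. Stfa2l1, a close copy of Stfa2, stood at 959 CPM (950 to 969) in the young library and 956 (949 to 963) in the old. Its share of family UMIs was 47.1% and 41.9%. Cstdc4, annotated by its cystatin domain, stood at 728 CPM (720 to 735) and 899 (893 to 906), with 35.7% and 39.4% of family UMIs. The 2 intervals of Stfa2l1 overlapped and those of Cstdc4 did not, but both genes lay within 1.5-fold between ages on the plain scale. The log2 differences were -0.0048 for Stfa2l1 and 0.31 for Cstdc4. Stfa1 was the third most abundant at 189 CPM (185 to 193) and 162 (160 to 165). Its log2 difference of -0.22 stood at 0.46 relative to the median gene, at 0.11 with S100a8 and S100a9 taken out of the library total, and at -0.08 with every cell weighted equally. The sign of the Stfa1 difference, like that of Stfa2l1, thus turned with the scaling.

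The members with the largest differences were among the less abundant. Stfa3 stood at 15.4 CPM (14.3 to 16.6) in the young library and 40.8 (39.4 to 42.2) in the old, 2.65-fold higher. Stfa2 stood at 38.8 CPM (37.0 to 40.7) and 94.8 (92.7 to 97.0), 2.44-fold higher. Csta2, which cannot be told apart here from misassigned reads of Cstdc4, stood at 8.07 CPM (7.26 to 8.95) and 14.3 (13.4 to 15.1), 1.77-fold higher. Csta3 went the other way, from 16.4 CPM (15.2 to 17.6) in the young library to 4.18 (3.74 to 4.66) in the old, 3.92-fold lower. These 4 genes kept their direction under each of the 4 other scalings tried. Cstdc5 stood at 82.0 CPM (79.4 to 84.7) and 110 (108 to 112), within 1.5-fold. Cstdc6, at 1.21 and 1.78 CPM, stayed under the floor of 5 CPM in the mean of the libraries and is left out of the counts.

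Of the 8 members measured at 5 CPM or more, 3 were at least 1.5-fold higher in the old library, 1 was at least 1.5-fold lower and 4 lay within. Among all 7215 genes measured, 7.83% were that much higher and 49.8% that much lower. Relative to the median gene the counts were 6 higher (24.4% of all genes), 1 lower (12.2%) and 1 within. The median log2 difference over the 8 members was 0.36, and -0.58 over all genes measured. Few cells held much of the less abundant members: the 3 richest cells held 23.6% of all Stfa3 UMIs, 22.5% of Csta2, 15.4% of Cstdc5, 13.8% of Stfa2 and 4.92% of Csta3 in the young library, and 10%, 15.7%, 6.45%, 5.56% and 7.88% in the old. Poisson intervals do not cover that clumping.

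**Figure D1:**
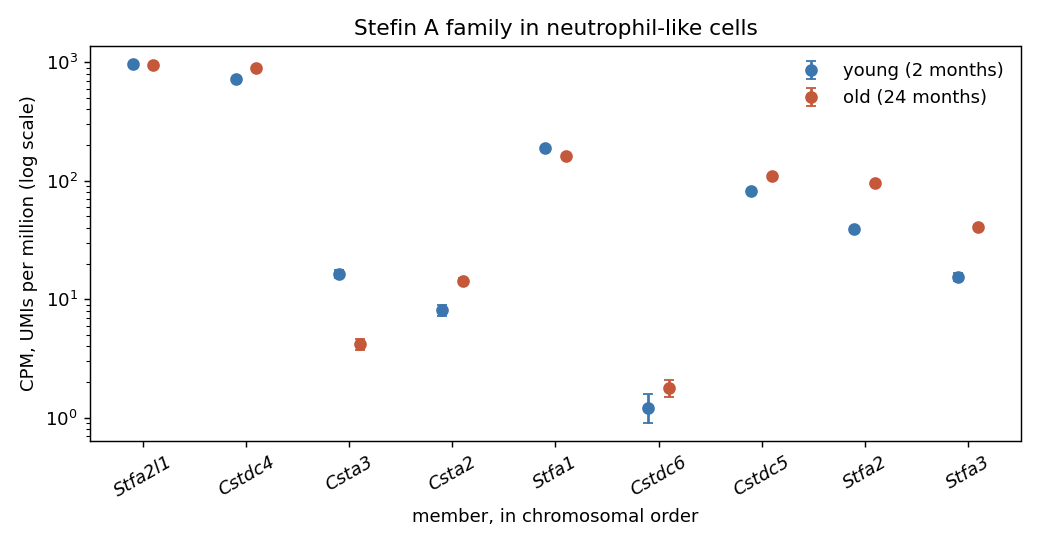
CPM (log scale) of each member summed over neutrophil-like cells, in chromosomal order, for the young (blue) and old (red) library; bars are exact 95% Poisson intervals and there is 1 library per age. Stfa2l1 and Cstdc4 stand near the top in both, Stfa2 and Stfa3 stand higher and Csta3 lower in the old library, and Cstdc6 is near 1 in both.

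The family was unevenly spread over cells. Each cell was thinned to 1000 UMIs to compare cells of different depth, which left 9899 young and 9131 old neutrophil-like cells and dropped 74 and 132 shallower ones. The mean was then 1.99 family UMIs per cell in the young library and 2.48 in the old, yet 55.3% (54.4 to 56.3) and 47.9% (46.9 to 49.0) of cells had none. The median cell had 0 and 1, the 90th percentile 6 and 7, the 99th percentile 19 and 21, and the highest cell 88 and 80. The richest 10% of cells held 57.3% of the family's thinned UMIs in the young library and 52.8% in the old, and the richest 1% held 14.8% and 11.3%. Without thinning, 60.1% and 78.2% of cells had at least 1 family UMI.

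Reaching 3 times the mean of the libraries, that is 7 or more of 1000 UMIs, were 864 young cells, or 8.73% (8.18 to 9.30), and 1096 old cells, or 12% (11.3 to 12.7). These are called stefin-rich cells here. They are the upper end of a continuous range and not a type: 230 young and 255 old cells had 6 UMIs, just under the limit, and 178 and 185 had 7. Counted without thinning as cells with at least 0.7% of their UMIs from the family, the shares were 6.87% and 10.1%. B cell-like cells, which should lack the genes, gave the level of stray molecules and doublets. At least 1 family UMI was found in 11.0% of 418 young and 11.2% of 241 old B cell-like cells after thinning (median depth before thinning 6392 and 8593 UMIs), and in 25.6% and 48.5% without it. Only 1 young and 0 old B cell-like cells reached the limit of 7, and 0 of 241 allows a share of up to 1.24% at 3 counts.

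**Figure D2:**
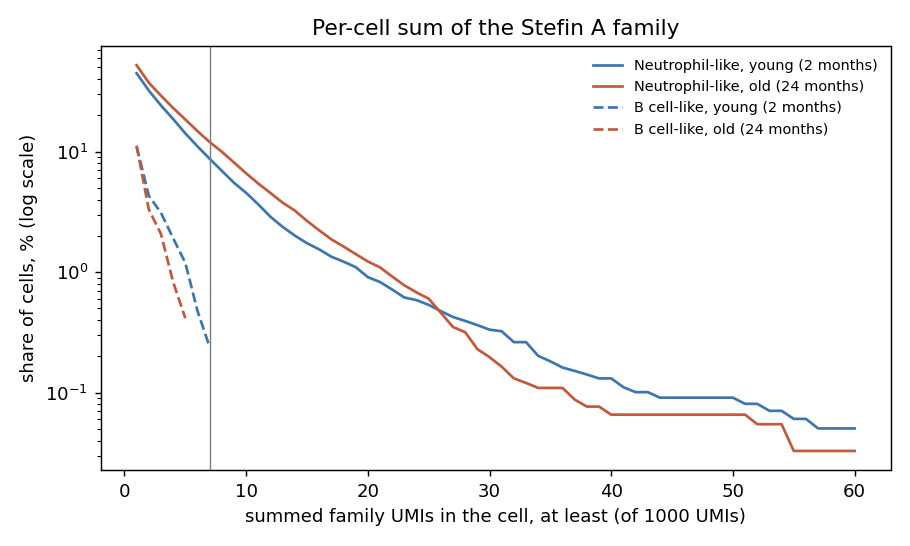
Share of cells (%, log scale) with at least the number of family UMIs on the horizontal axis, each cell thinned to 1000 UMIs, for neutrophil-like (solid) and B cell-like (dashed) cells of the young (blue) and old (red) library; the grey line marks 7 UMIs. The neutrophil-like curves fall without a step, with 8.73% and 12% of cells at the line, and the B cell-like curves end at or before it.

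Single cells at the far end were dominated by different members. A young cell of 8836 UMIs held 266 UMIs of Cstdc5, 132 of Stfa2, 64 of Stfa3 and 52 of Stfa2l1, but 7 of Stfa1 and 4 of Cstdc4. In another young cell, of 4779 UMIs, Stfa1 alone gave 180 UMIs, and the family 8.31% of the cell. An old cell of 9515 UMIs held 257 UMIs of Cstdc5, 210 of Cstdc4, 137 of Stfa2 and 115 of Stfa3, with 0 of Stfa2l1, the most abundant member over all cells. The family made up 7.79% of the UMIs of that cell, the largest share in the old library, and 8.33% of the richest young cell. Stfa1 had its highest old value, 233 UMIs, in a cell of 10013.

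A single member gave at least 50% of the family's thinned UMIs in 88.2% of the young and 88.8% of the old stefin-rich cells. A cell with 1 or 2 members detected meets that limit by arithmetic. The median stefin-rich cell had 2 members detected, 34.8% and 31.6% had 3 or more, and 13.3% and 16.8% had 1. Most of the share was therefore fixed by the few members detected, and no share in other cells was set beside it. The largest member, where it reached 50%, was Stfa2l1 in 44.9% and 40.0% of the stefin-rich cells, Cstdc4 in 35.5% and 39.1%, Stfa1 in 6.60% and 5.66% and Cstdc5 in 0.810% and 2.28%. Stfa2l1 made up 41.2% of family UMIs in the young stefin-rich cells and 57.6% in the other young cells, and 37.9% and 53.2% in the old. Stfa1 went from 5.74% of family UMIs in the other cells to 11.2% in the stefin-rich cells of the young library, and from 5.53% to 7.52% in the old. Cstdc5 made up 1.64% against 5.18% in the young library and 2.90% against 5.77% in the old. The stefin-rich cells were chosen by the same UMIs, so members concentrated in few cells can gain share in them by the choice itself. These shares are therefore a description only.

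Depth and genes per cell, which did not enter the choice of these cells, were within 1.5-fold of those of the other cells, whereas cells with markers of other types were a smaller share. Stefin-rich cells had a median of 4210 UMIs in the young library against 4067 in the other cells, and 7032 against 7373 in the old. Genes detected per cell had medians of 1530 against 1559 and 1783 against 1859. Cells with at least 0.5% of UMIs from T, NK, B, platelet or erythroid markers were 1.16% of the stefin-rich and 2.41% of the other young cells, and 3.92% and 7.45% of the old. Calprotectin UMIs per 1000 had a median of 123 in the stefin-rich and 84 in the other cells of the young library, but of 258 and 260 in the old. Specific granule UMIs per 1000 had a median of 2 against 1 in the young and 9 against 11 in the old library.

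The scatter between cells was measured for each member as the Fano factor, the variance over the mean of the thinned UMIs, which is near 1 for plain counting. Over the 7215 measured genes its median was 1.06 young and 1.03 old, with a 99th percentile of 1.78 and 1.73. Stfa1 reached 8.36 and 7.0, ranks 10 and 14 of 7215. Cstdc5 followed with 7.84 and 6.28 (ranks 11 and 15), then Cstdc4 with 5.05 and 5.72 (13 and 17), Stfa2 with 4.47 and 4.19 (15 and 22) and Stfa2l1 with 4.08 and 4.10 (17 and 23). Stfa3 stood at 3.26 and 3.14 and Csta2 at 2.37 and 2.38, all 4 above the 99th percentile, and Csta3 at 1.63 and 1.41, below it. The genes ranked before Stfa1 in the young library were the haemoglobins Hba-a1, Hba-a2 and Hbb-bs, S100a8 and S100a9, the granule genes Ngp, Camp and Ltf, and Retnlg.

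The scatter was also present within single clusters. In the largest cluster of each library (cluster 0 young, 5462 thinned cells, and cluster 1 old, 5136) the Fano factor was 9.75 and 6.14 for Stfa1, 9.0 and 5.51 for Cstdc5, 5.41 and 5.79 for Cstdc4, 4.73 and 4.2 for Stfa2 and 4.52 and 4.11 for Stfa2l1. The clusters had been made without the members among the variable genes.

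Members differed in how widely they were detected. Stfa1 was detected in 5.21% and 5.07% of thinned cells (8.71% and 12.2% without thinning), with a mean of 3.30 and 3.27 UMIs in the cells that had it. The richest 1% of cells held 57.1% and 50.3% of its unthinned UMIs. For Cstdc5 the richest 1% held 78.9% and 58.8%, for Stfa2 85.4% and 54.1% and for Stfa3 79.7% and 70.5%. Such shares are high in part by arithmetic, as Stfa2 was detected in 2.93% and 10.1% of unthinned cells and Stfa3 in 2.40% and 6.03%. The mean in thinned cells with the gene was 2.98 and 2.97 UMIs for Cstdc5, 2.23 and 2.14 for Stfa2 and 1.64 and 1.80 for Stfa3. It was 2.95 and 2.99 for Stfa2l1 and 3.16 and 3.57 for Cstdc4, so rarer members were not in general higher per positive cell. Stfa2l1 and Cstdc4 were spread more widely: Stfa2l1 was detected in 33.0% and 36.6% of thinned cells (46.2% and 60.4% without thinning) and Cstdc4 in 22.3% and 26.8% (34.1% and 48.9%). Their richest 1% of cells held 11.9% and 10.8% of Stfa2l1 and 18.2% and 16.6% of Cstdc4. In B cell-like cells Stfa2l1 was detected in 7.42% and 7.47%, Cstdc4 in 4.78% and 4.56%, and Stfa1 in 0.478% (2 of 418) and 0 of 241. The detected shares of these 3 members in neutrophil-like cells were well above that background. Those of Csta2 (0.485% and 0.876%) and Cstdc6 (0.152% and 0.153%) were too low to be set against the 0 B cell-like cells found. By the exact interval these allow up to 0.879% and 1.52%. The same held for Stfa3 in the young library (0.758% against 0 of 418) and for Csta3 in the old (0.493% against 0 of 241). The 1.51% of Stfa2 in the young library lay within the B cell-like interval, which reached 1.72%. For Csta3 in the young library, 1.33% (1.12 to 1.58), the interval overlapped that of B cell-like cells, which reached 1.33%.

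**Figure D3:**
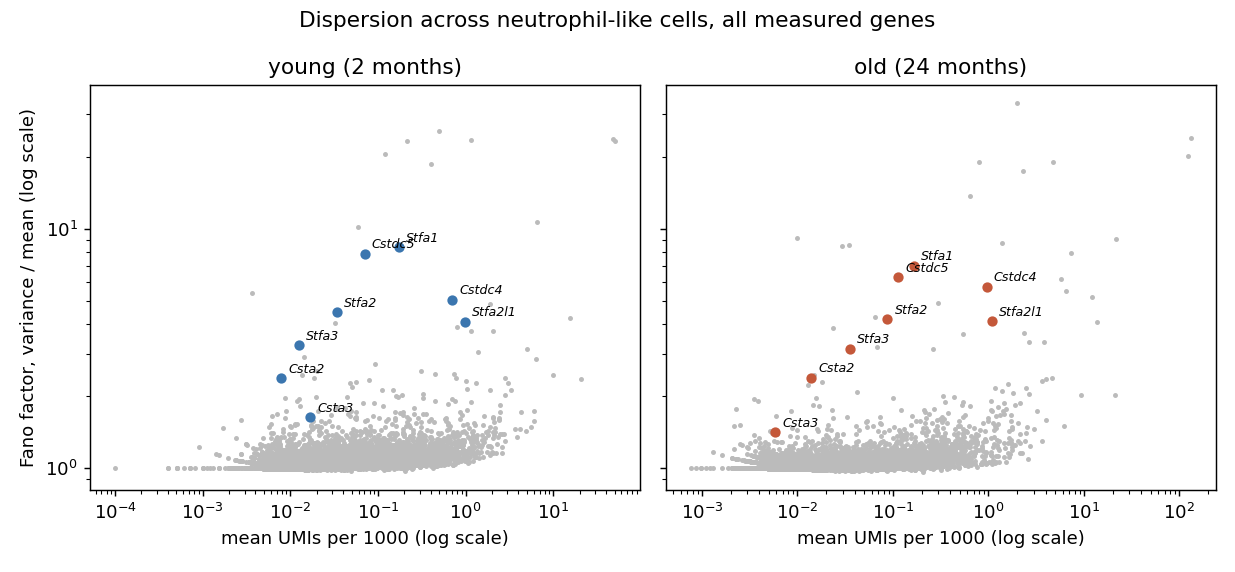
Fano factor against mean UMIs per 1000 (both log scales) across thinned neutrophil-like cells for every measured gene (grey) and the 8 measured members (coloured), with the young library on the left and the old on the right. Members other than Csta3 lie above the 99th percentile of all measured genes (1.78 young, 1.73 old), Stfa1 and Cstdc5 highest at 8.36 and 7.84 in the young library. Csta3 lies above the 95th percentile (1.31 and 1.24).

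Members were detected together in cells. Over the 28 pairs of measured members, Pearson's r across thinned neutrophil-like cells, on log(1 + UMIs), had a median of 0.11 in the young library (9899 cells) and 0.069 in the old (9131 cells), and was above 0 in 28 and 27 pairs. The cells behind each value share 1 library, 1 background of stray molecules and the thinned depth, so r is a description, and in such sparse counts values near the median are no finding. The range ran from 0.00094 to 0.47 in the young library and from -0.0021 to 0.34 in the old, and 7 and 4 pairs lay above 0.2.

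Stfa2 and Cstdc5 had the highest r of the young library, 0.47, against 0.25 in the old. Cstdc5 was detected in 36.9% of the 149 young cells with Stfa2 and in 1.83% of those without it, and in 18.7% of the 374 old cells with Stfa2 against 3.17%. Stfa2l1 and Cstdc4 had r of 0.37 and 0.34. Cstdc4 was detected in 40.4% of young cells with Stfa2l1 and 13.3% without, and in 42.3% and 17.9% in the old library. Stfa3 with Cstdc5 gave 0.24 and 0.23, Stfa2 with Stfa3 gave 0.22 and 0.25, and Stfa1 with Cstdc5 gave 0.26 and 0.15. Within the largest cluster of each library, r was 0.53 and 0.25 for Stfa2 with Cstdc5 and 0.40 and 0.32 for Stfa2l1 with Cstdc4, and the median over the 28 pairs was 0.15 and 0.068.

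Sequence identity and r were not related in an obvious way. Stfa2 and Stfa2l1, 96.4% identical, had r of 0.16 and 0.12, below Stfa2 with Cstdc5. Across the 28 pairs the correlation of identity with r was -0.12 young and 0.069 old, where pairs share genes and are not independent. The identities of pairs with Stfa1 are lowered by gaps against its longer coding sequence, and the correlation without these pairs was not computed. The 7 pairs next to each other on the chromosome among measured members had a median r of 0.22 and 0.15, the other 21 pairs 0.11 and 0.068, a split chosen after the values were seen.

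Each measured member was also compared with the others and with all genes at 50 CPM or more, 2579 genes with the member itself. The gene with the highest r was another member for each of the 8 members in both libraries. The highest r with a gene outside the family was 0.16 in the young library, for Cstdc4 with S100a9, and 0.17 in the old, for Stfa2l1 with Ifitm1, an interferon-inducible membrane protein. In the old library Ifitm1 came second for Stfa2l1.

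**Figure D4:**
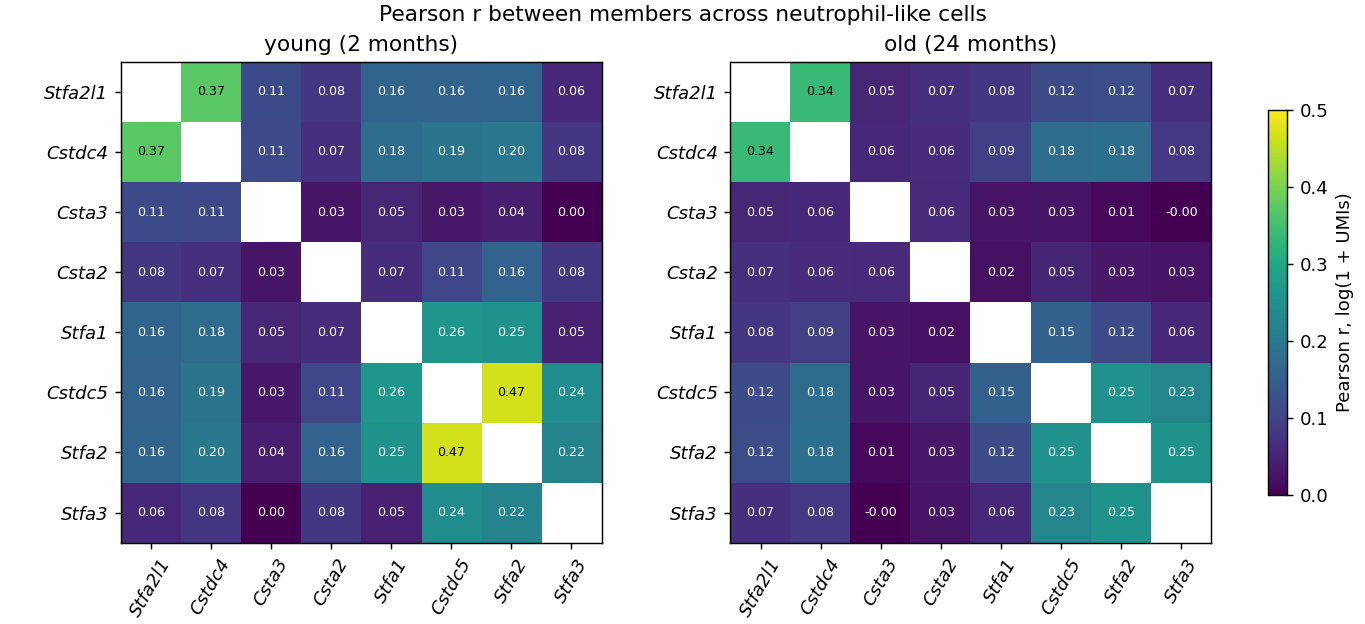
Pearson's r on log(1 + UMIs) between the 8 measured members across thinned neutrophil-like cells, in chromosomal order, for the young (left, 9899 cells) and old (right, 9131 cells) library. The pairs Stfa2l1 with Cstdc4 and Stfa2 with Cstdc5 stand out in the young library at 0.37 and 0.47, and most other cells of the grid are below 0.2.

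The genes whose per-cell pattern was most like the family sum had low values of r themselves. By the mean over both libraries, among 2489 genes, the 10 highest were Retnlg (0.11 and 0.16), Ifitm1 (0.039 and 0.18), Wfdc17 (0.045 and 0.18), Slpi (0.065 and 0.15), S100a11 (0.057 and 0.13), S100a8 (0.14 and 0.039), S100a9 (0.16 and 0.015), S100a6 (0.072 and 0.086), Ccl6 (0.041 and 0.11) and Srgn (0.014 and 0.13). Retnlg encodes a resistin-like secreted protein of mature neutrophils, and Slpi is an inhibitor of serine proteases such as neutrophil elastase. At the other end stood the specific granule genes Camp (-0.034 and -0.21), Ltf (-0.035 and -0.20) and Ngp (-0.015 and -0.19). Summed scores gave r of 0.014 and -0.13 for specific granule genes and 0.071 and 0.17 for gelatinase granule and mature genes. Calprotectin gave 0.15 and 0.031. Within the largest cluster of each library the specific granule value was -0.0068 and -0.032 and the gelatinase value 0.044 and 0.0044. The scores of interferon-stimulated, immediate early and inflammatory genes had values between -0.038 and 0.069.

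The family level was next set against specific granule transcripts. In cells with 0 to 4 specific granule UMIs per 1000, the family mean was 1.97 in the young library (8532 cells) and 2.47 in the old (1995 cells). With 5 to 19 it was 2.19 (1275 cells) and 3.06 (4477 cells). With 20 to 99 it was 1.17 (75 cells) and 1.64 (2345 cells), and with 100 or more 0.353 (17 cells) and 0.325 (314 cells). The share of cells with a family UMI was lower from range to range over these ranges in the young library, from 45.2% to 42.2%, 29.3% and 11.8%, and was 50%, 58.3%, 46.8% and 15.9% in the old. The shares of stefin-rich young cells in the lower 2 ranges overlapped, at 8.63% (8.04 to 9.24) and 9.57% (8.01 to 11.3). Among these ranges, old cells that were richest in granule transcripts, a mark of the least mature blood neutrophils, thus had the lowest family level. In the young library the highest range also had the lowest values but held only 17 cells. The interval of its share with a family UMI, 11.8% (1.46 to 36.4), overlapped that of the range below, 29.3% (19.4 to 41.0). Of these 17 cells 0 were stefin-rich, with an interval up to 19.5%. Stefin-rich cells made up 0.318% (0.00806 to 1.76) of the 314 old cells in the highest range and 16% (14.9 to 17.1) of the 4477 in the range of 5 to 19. In the highest range the granule genes take 10% or more of the UMIs, and per 1000 UMIs of other genes the family mean there was 0.401 and 0.368.

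Across clusters the family ranged widely, and the order differed by library. In the old library cluster 1, led by Prok2, Wfdc17 and Ifitm1, had 3145 CPM (3127 to 3162), and cluster 3, led by the granule genes Ltf, Camp and Ngp, had 1124 (1112 to 1136). Stefin-rich cells were 16.2% (15.2 to 17.2) of cluster 1 and 4.36% (3.50 to 5.37) of cluster 3. In the young library cluster 0, led by Sugct, Jaml and Cd101, had 2415 CPM (2395 to 2435), with 10.45% stefin-rich cells, and cluster 2, led by Chn2, Clec4n, Pmaip1 and Csf1, had 1429 (1407 to 1452), with 5.18%. Cluster 2 was also low in the old library, at 961 CPM (860 to 1071) over 108 cells with 0.926% stefin-rich cells. The 157 young cells of cluster 3 stood at 1751 CPM (1685 to 1820), above young cluster 2, with 10.8% (6.44 to 16.8) stefin-rich cells. The 3 richest of these cells held 19.7% of the family UMIs. The 27 young cells of cluster 1 had 68.6% of theirs in 3 cells. Cluster 12, led by low-level genes, held 98 and 401 cells, and its leading genes included Stfa3 itself. No neutrophil marker was among its leading genes, nor among those of clusters 0, 2, 3, 4 and 9. Of the 10 neutrophil markers, cluster 12 met the naming limits for 10 and cluster 2 for only 5. Cluster 12 stood at 1122 and 1745 CPM, where the 3 richest cells held 35.4% and 27.9% of the family UMIs, with 1.20% and 0.955% stefin-rich cells. A cluster of 903 and 715 cells led by platelet genes (cluster 5) was left unnamed and stood at 1744 and 2715 CPM, within the range of the neutrophil-like clusters.

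Clusters 0 and 4 had at least 200 cells of each library and allow the ages to be set side by side within a cluster. On the plain scale the family went opposite ways in them. In cluster 0 it stood at 2415 CPM against 2200 (2140 to 2262), a log2 difference of -0.13. In cluster 4, led by the interferon-stimulated genes Ifit3, Ifit1 and Rsad2, it stood at 1750 CPM (1719 to 1780) and 2837 (2732 to 2944), a log2 difference of 0.70. The median gene shifted by -0.11 and -0.21 in these clusters, so in cluster 0 the family moved about as much as the median gene. Stfa1 stood at 238 and 87.2 CPM in cluster 0 but at 118 and 260 in cluster 4. Stfa2 stood at 53.5 and 38.1 in cluster 0 and at 14.3 and 38.0 in cluster 4. Stfa3, Cstdc5 and Csta2 likewise had log2 differences of -0.80, -0.94 and -0.49 in cluster 0 and of 1.65, 1.03 and 0.80 in cluster 4. Few cells set these values in the old library: the 3 richest of 632 cells held 45.7% of Stfa1 UMIs in cluster 0, and the 3 richest of 232 cells held 47.0% of Stfa1 and 83.8% of Stfa2 UMIs in cluster 4. Csta3 had log2 differences of -0.62 and -0.88, but with 25 and 10 old UMIs its intervals overlapped between ages in both clusters, and the 3 richest old cells held 52% and 70% of them. The higher Stfa2, Stfa3 and Csta2 over all old neutrophil-like cells therefore did not hold within cluster 0.

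**Figure D5:**
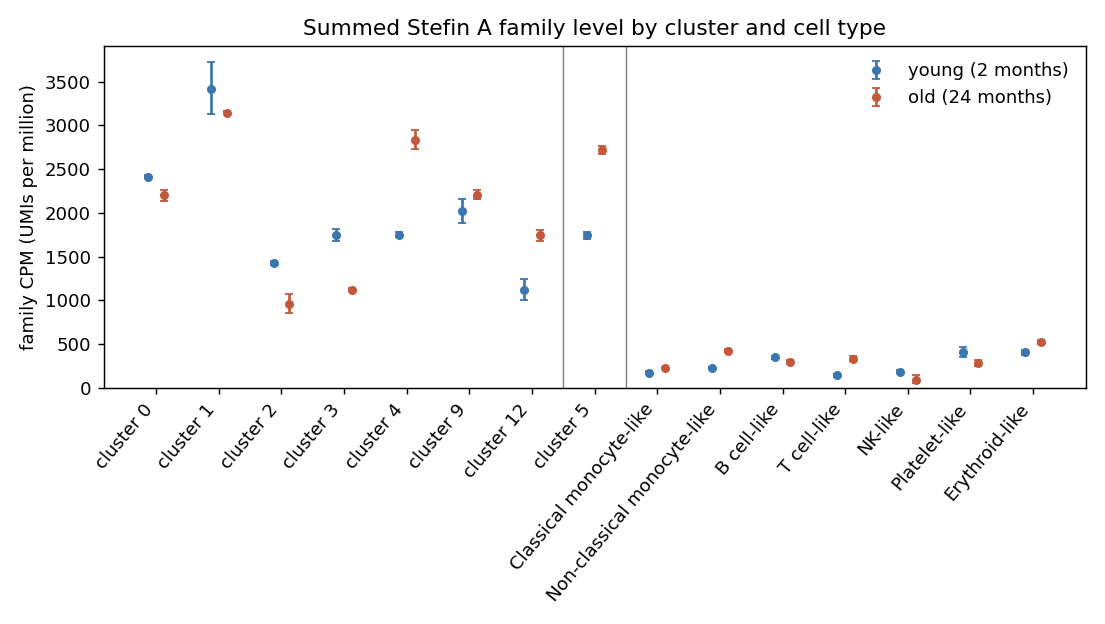
Summed family level (CPM) of the young (blue) and old (red) library in the neutrophil-like clusters (left), the unnamed cluster 5 (middle) and cells of other types (right); bars are exact 95% Poisson intervals for counting error only. The clusters lie between 961 and 3420 and the other types between 92.6 (26 old NK-like cells) and 524.

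In other cell types the family was lower than in each neutrophil-like cluster. It stood at 348 and 295 CPM in B cell-like cells, 141 and 334 in T cell-like, 173 and 227 in classical monocyte-like, 227 and 426 in non-classical monocyte-like, 405 and 281 in platelet-like and 406 and 524 in erythroid-like cells, and at 185 and 92.6 in NK-like cells. Family UMIs per T cell-like cell were 15.7% and 18.5% of the neutrophil-like level, where those of S100a8 were 14.2% and 20.3%. In B cell-like cells the family was at 28.5% and 16.3% and S100a8 at 20.3% and 18.5%. The 3 richest B cell-like cells held 29.95% and 32.8% of the family UMIs of their type. In platelet-like cells this share was 77.5% and 37.5%, and in T cell-like cells 59.2% and 31.7%. The old NK-like level rested on 16 UMIs in 26 cells (52.9 to 150 CPM).

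The proteases that stefins inhibit and the other inhibitors were read from lists chosen by function. Of 10 cysteine cathepsins 6 were measured, of which 1 was at least 1.5-fold higher in the old library, 0 lower and 5 within, with a median log2 difference of 0.21. Relative to the median gene 4 were higher, 0 lower and 2 within. Over all genes measured, 7.83% were higher plain and 24.4% relative to the median gene. Ctsc, the dipeptidyl peptidase that activates the serine proteases of neutrophil granules, stood at 7.42 and 33.7 CPM. The lysosomal endopeptidases Ctsl and Ctss stood at 30.4 and 40.1 and at 63.1 and 49.98 CPM, and the carboxypeptidase Ctsz at 74.5 and 52.9. The family sum was thus above each of these named cathepsins in both libraries. Of 11 other cystatins 2 were measured. Cstb, the stefin outside this cluster, stood at 86.6 and 79.6 CPM, within 1.5-fold, and the secreted cystatin C gene Cst3 at 769 and 417, at least 1.5-fold lower plain but less than that once set against the median gene. Csta1, a stefin gene beside the cluster, had 4 and 3 UMIs.

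Of 15 protease inhibitors of other families 7 were measured, of which 4 were at least 1.5-fold higher, 0 lower and 3 within, with a median log2 difference of 0.63. The counts relative to the median gene were also 4, 0 and 3, beside the same 7.83% and 24.4% of all genes higher. Serpinb1a, a cytosolic inhibitor of neutrophil serine proteases, stood at 14.95 and 228 CPM. The whey acidic protein genes Wfdc21 and Wfdc17 stood at 1151 and 5512 and at 1813 and 6506 CPM, and the metalloproteinase inhibitor gene Timp2 at 135 and 209. Serpinb1a was among the genes least like the family across cells, with r of -0.015 and -0.10, whereas Wfdc17 was among the 10 most like it.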

How the data were processed

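The authors deposited raw UMI counts for each gene in each cell barcode, with no normalization. Per the file headers they were made with Cell Ranger 7.2.0, and the submitters' processing notes name Cell Ranger and build mm10. How the barcodes of that program relate to BD Rhapsody cell labels, the annotation release, cell calling and treatment of reads that map to several copies are not given in the sources used here. The members, lists and tests were chosen with earlier results of these data known. The cell filter asked for 200 genes and no more than 20% mitochondrial UMIs (678 young and 817 old barcodes removed). Cells were then clustered together without integration with leidenalg 0.10.2 and scanpy 1.11.5, with 2000 variable genes per library without the members, 30 components, 15 neighbours and resolution 0.6. Clusters were named from marker lists, with at least 3 markers at 20 CPM and 25% of the highest cluster. No doublet caller was run. Neutrophil-like UMIs were summed per library as CPM. Ratios are log2 with 1 CPM added, called from 1.5-fold in place of a test, and genes were measured at 5 CPM in the mean. Thinning drew 1000 UMIs per cell with a fixed seed. Named genes are the 9 members, up to 4 genes at 10 CPM per list by size of ratio, and the 10 most like the family sum. Csta1, Ctsb, the lowest genes by likeness, leading cluster genes and genes outside the family with the highest r were named outside this rule. On simulated data over 7406 genes, the ratios were tested with known changes: 100% of 200 genes changed 2-fold lay beyond 1.5-fold and 0% of the unchanged. Coding sequences were aligned with Biopython 1.88. Promoters are from RefSeq (GRCm38.p6), where 8 of 9 members matched. Alternatives are in the closing section.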

Additional observations from a re-analysis of the deposited data

How the results depend on the processing

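No paired analysis was possible because there is 1 library per age. The family log2 difference (0.16) kept its direction in the 16 alternatives, at 0.069 over all filtered cells, 0.18 at resolution 0.3 and 0.18 with the members among the variable genes, 0.20 with cluster 5 counted as neutrophil-like, 0.28 as the mean within clusters 0 and 4, 0.32 with equal weight per cell, 0.50 with S100a8 and S100a9 out of the total and 0.84 centred on the median gene. The 3 members higher in the old library became 6 when centred, 5 without S100a8 and S100a9 in the total, 1 with a floor of 50 CPM and 0 as the mean within clusters 0 and 4. The share of stefin-rich cells was 14.2% young and 18.5% old at 2 times the mean (5 UMIs), 2.88% and 4.53% at 5 times (12 UMIs) and 7.81% and 11.2% at 2000 UMIs per cell, and 9.38% young over all filtered cells. The median r between members was 0.085 young at 500 UMIs, 0.14 young and 0.098 old at 2000, and 0.14 young on UMIs without the logarithm. The cause was not tested, except that the higher floor counts fewer members and another total or centring shifts all ratios alike. The old share of stefin-rich cells was above the young share in each alternative run for both, but none of these held the cluster fixed. Within clusters the old share was lower in clusters 0 (10.45% young, 9.95% old), 2 (5.18%, 0.926%), 3 (10.8%, 4.36%), 9 (11.8%, 10.45%) and 12 (1.20%, 0.955%). It was higher in clusters 1 (12.5% of 24 young cells, 16.2%) and 4 (8.30%, 14.3%). The intervals of the 2 libraries overlapped except in clusters 3 and 4. The members higher numbered 2 with 5 CPM added and 2 at a limit of 2-fold. The remaining values moved by less than their interval or by less than 1.5 times. Leaving out cluster 12, counting cluster 5 and leaving out the shared barcodes were chosen after seeing the data. Depth limits the low members: Cstdc6 had 54 and 140 UMIs in all, and neither animals nor libraries are replicated.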
